A study of Mus musculus with 18 samples.

Results

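Imprinted genes are transcribed mainly from 1 parental copy, and 45 of them were followed here from fibroblasts through reprogramming. The members were the listed symbols that had a probe set named for a single gene in the table of array values, with 1 probe set each. Of the 45 symbols, 37 were measured, among 19937 genes in all: 19 are paternally expressed and 18 maternally expressed. Mirg, Snrpn, Ube3a and Gnas shared their probe sets with other symbols, and H19, Kcnq1ot1, Peg13 and Zrsr1 had no probe set named for them, so these 8 are not analysed here. The members fall into 9 imprinted clusters, with 10 listed genes outside them.

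RNA from 6 groups of cells was hybridised to 18 whole-transcript mouse arrays, 3 arrays per group. The MEF group was low-passage primary embryonic fibroblasts of CD1 mice, grown in serum medium without feeder cells. The 3 induced pluripotent stem (iPS) lines were made from CD1 MEFs with pMX retroviruses carrying Oct4, Klf4 and Sox2 and no Myc: the partially reprogrammed line EOS3F-24, and the fully reprogrammed lines EOS3F-28 and EOS3F-29, each 1 clone. A 2i converted group was EOS3F-24 given a MEK inhibitor at 2 μM and a GSK inhibitor at 12 μM in ES medium with LIF. J1 is an embryonic stem (ES) cell line that received no reprogramming factors. J1 and every iPS group shared LIF medium and a layer of arrested feeders. Puromycin at 1 μg/mL was present for the 3 iPS lines. Every comparison with MEFs therefore also compares culture with and without feeders and LIF, and those of the iPS groups also culture with and without puromycin. These cannot be told apart. No label gave the strain of J1, and none says whether the 3 arrays of a group came from separate cultures, so the p-values reflect array-to-array spread alone, and that spread could be technical.

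Imprints are DNA methylation marks set in the egg or sperm at imprinting control regions, which silence 1 parental copy of the genes nearby. After fertilisation the zinc finger protein ZFP57, its corepressor TRIM28 and the methyltransferase DNMT1 keep these marks while the rest of the genome is demethylated. Many imprinted genes act on fetal and placental growth, and several are known to lose or gain expression in cultured stem cells, the Dlk1-Dio3 cluster in iPS cells above all. The arrays read the total transcript of a gene and not its parental alleles, so a level here says nothing of which copy was transcribed. In bulk RNA of this kind, fewer cells of a type and less RNA per cell cannot be told apart.

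Values are log2 expression levels as deposited, so a difference of 1 is 2-fold. A gene was called at an adjusted p under 0.05, from limma's moderated test with Benjamini-Hochberg adjustment over all 19937 genes, and every p below is of that kind. Array medians lay between 3.92 and 4.11, and arrays of a group correlated at 0.970 to 0.992 over all genes. Of the members, 18 had a mean of at least 5 over the 18 arrays, and 16 stayed under 5 in every group mean, low on the scale of these arrays. The labels were set against 20 pluripotency markers, a list that includes the factors carried by the retroviruses. Their mean was 3.78 to 3.86 over the MEF arrays, 5.04 to 5.32 in partial EOS3F-24 and 7.13 to 8.01 in the other 4 groups. The mean of 24 fibroblast markers was 9.13 to 9.35 in MEFs and 6.46 to 8.51 on the feeder-grown arrays. The mean of 8 neural markers was 4.94 to 5.09 in partial EOS3F-24 and 4.45 to 4.78 on the other arrays. The mean of 10 trophoblast markers, Ascl2 among them, was 4.13 to 4.18 in partial cells, 3.65 to 3.79 in MEFs and 3.88 to 4.21 elsewhere, and that of 10 primitive endoderm markers was 4.23 to 4.55 over all arrays. Over the 8 comparisons the members had 57 calls of at least 2-fold and 43 smaller ones. Of these, 53 and 16 held under every alternative other than leaving out dim genes.

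Among the paternally expressed genes, Peg10, Zdbf2 and Mest set partial EOS3F-24 furthest from the other lines. Peg10 is a retrotransposon-derived gene needed for the placenta. It measured 5.98, 6.29 and 4.96 in MEFs, 4.70, 4.40 and 4.24 in partial EOS3F-24, and 8.30, 8.38 and 8.49 after 2i conversion. In EOS3F-28 it was at 7.39, 7.83 and 7.42, in EOS3F-29 at 6.74, 7.45 and 7.02, and in J1 at 6.97, 7.35 and 7.03. All 3 partial arrays lay below every other array, and all 3 converted arrays above every other. Zdbf2, which encodes a zinc finger protein, was at 4.04, 4.40 and 3.63 in MEFs, 4.04, 4.08 and 4.30 in partial cells and 7.05, 6.80 and 7.45 after conversion. It was at 6.01, 6.01 and 6.27 in EOS3F-28, 5.97, 6.14 and 6.20 in EOS3F-29 and 7.00, 6.20 and 6.93 in J1. The partial arrays overlapped the MEF arrays and no other group. Mest, of the hydrolase fold family, was at 6.56, 7.19 and 7.40 in MEFs, 5.23, 5.23 and 5.04 in partial cells and 7.67, 7.54 and 7.71 after conversion. It was at 6.19, 6.54 and 6.35 in EOS3F-28, 6.49, 6.67 and 6.43 in EOS3F-29 and 7.59, 7.17 and 7.48 in J1. The partial arrays were the lowest of the 18 here too.

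**Figure D1:**
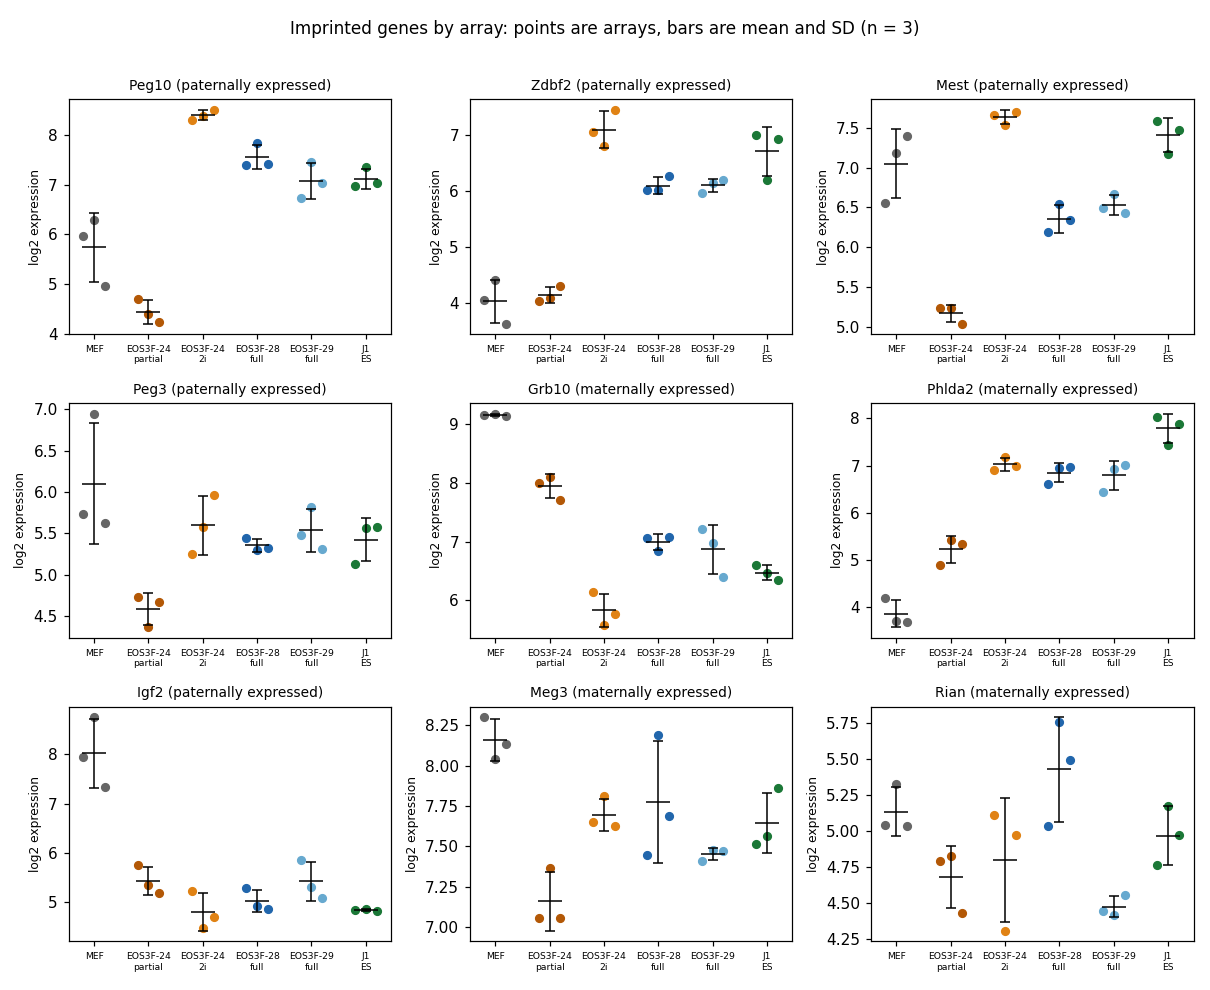
Log2 expression of 9 imprinted genes in the 6 groups; each point is an array and bars are the mean and SD of 3 arrays. Peg10 is lowest in partial EOS3F-24, between 4.24 and 4.70, and highest after 2i conversion, between 8.30 and 8.49, while Grb10 runs from 9.15 to 9.18 in MEFs down to 5.58 to 6.14 after conversion.

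Among the maternally expressed genes, Grb10 and Phlda2 had the widest spread between groups. Grb10 encodes an adaptor that restrains insulin and IGF receptor signalling. It was at 9.16, 9.18 and 9.15 in MEFs, 8.01, 8.11 and 7.72 in partial cells and 6.14, 5.58 and 5.76 after conversion. EOS3F-28 had 7.05, 6.84 and 7.08, EOS3F-29 had 7.22, 6.98 and 6.40, and J1 had 6.60, 6.46 and 6.35. The MEF arrays were highest and the partial arrays next, and neither overlapped another group. Phlda2, which encodes a small protein that limits placental growth, was at 4.18, 3.70 and 3.68 in MEFs and 4.90, 5.42 and 5.34 in partial cells. It was at 6.91, 7.18 and 6.99 after conversion, 6.61, 6.96 and 6.96 in EOS3F-28, 6.44, 6.92 and 7.02 in EOS3F-29 and 8.04, 7.44 and 7.89 in J1. MEF, partial and J1 arrays each stood apart, while the converted arrays overlapped both full lines.

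Of the 37 members, 22 were called between partial EOS3F-24 and MEFs, 7 higher and 15 lower. Of all genes 23.7% were called, 13.7% higher and 10.0% lower. The calls reached 2-fold in 13 members, beside 6.22% of all genes. The median difference of the members was -0.25, beside 0.04 over all genes. Paternally expressed genes were called in 10 of 19 cases, 1 higher and 9 lower, and maternally expressed genes in 12 of 18, 6 higher and 6 lower. After cyclic loess scaling the split was 4 higher and 17 lower. Between the full lines and MEFs 22 members were called, 8 higher and 14 lower, and 14 calls reached 2-fold. Of all genes 35.0% were called, 17.1% higher and 17.8% lower, and 7.81% with 2-fold. The median was -0.14 beside 0.03, with 4 paternally expressed genes higher and 8 lower, and 4 maternally expressed genes higher and 6 lower. Between J1 and MEFs 22 members were called, 9 higher and 13 lower, and 14 calls reached 2-fold. Of all genes 38.0% were called, 20.6% higher and 17.5% lower, and 11.3% with 2-fold. The median was 0.00 beside 0.06, with 5 paternally expressed genes higher and 7 lower, and 4 maternally expressed genes higher and 6 lower. Centring each array on housekeeping genes turned the J1 split to 11 higher and 10 lower, and moved the median of all genes from 0.06 to 0.21. Of the 12 housekeeping genes, 1, 6 and 9 were themselves called in partial, full and J1 cells against MEFs. Their levels were thus not constant between J1 or full cells and MEFs, which limits what this centring can show. The 3 comparisons share the MEF arrays, so the values given side by side below are not independent of each other. In the same comparisons 19, 20 and 21 of the 24 fibroblast markers were lower, and 1 in each, Dcn, was higher; the part of that shift in the members' values was not tested. Of the 8 neural markers, 3, 2 and 2 were called higher than in MEFs in partial, full and J1 cells, and 1, 2 and 2 lower. Stmn2 was higher by 4.62 in partial cells, 2.87 in full cells and 2.78 in J1. Nes was lower in all 3 comparisons, most in partial cells (-2.34), and Map2 was lower in full cells and J1.

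**Figure D2:**
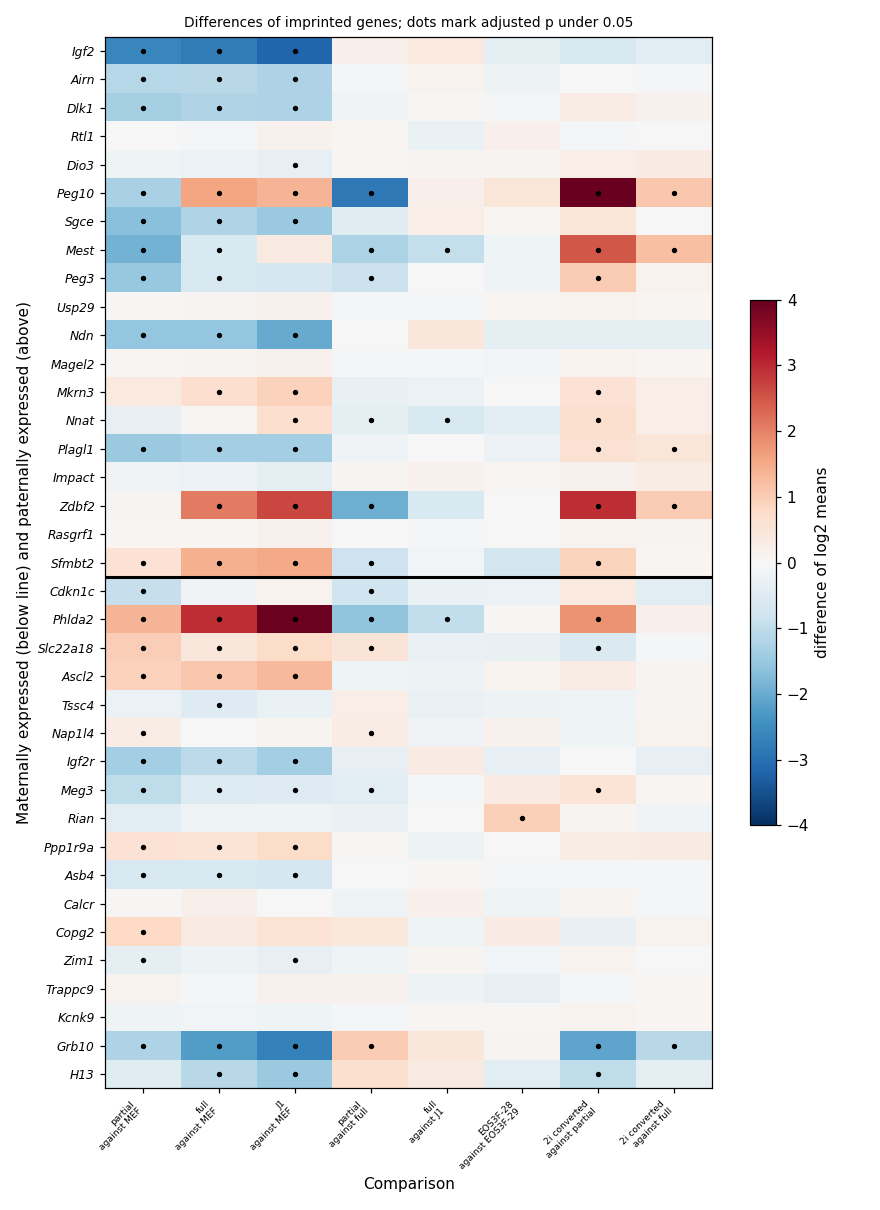
Difference of log2 means for the 37 imprinted genes (rows, paternally expressed above the line) in 8 comparisons (columns), on a colour scale from -4 to 4, with a dot where the adjusted p was under 0.05. The 2i converted against partial column holds the largest rise, Peg10 at 3.94, and 13 dots.

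Igf2, Igf2r, Airn and Grb10 were called lower in all 3 comparisons. Igf2, the paternally expressed fetal growth factor, was at 7.96, 8.76 and 7.35 in MEFs, and no feeder-grown array was above 5.86. It fell by 2.60 ± 0.28 (SE, adjusted p = 2.41e-06) in partial cells, by 2.80 ± 0.24 (1.12e-07) in full cells and by 3.18 ± 0.28 (1.36e-07) in J1. Igf2r, the maternally expressed receptor that clears IGF2, was at 8.14, 7.83 and 8.64 in MEFs and fell by 1.36 ± 0.23, 1.04 ± 0.20 and 1.37 ± 0.23 in the same order (adjusted p = 0.000279, 0.000523 and 0.000134). Airn, the paternal noncoding RNA that overlaps Igf2r on the opposite strand and silences it in cis, was lower as well, at 4.33 to 4.39 in MEFs and 3.01 to 3.51 elsewhere. Its differences were -1.15 ± 0.12, -1.10 ± 0.10 and -1.25 ± 0.12 (adjusted p = 1.48e-06, 2.72e-07 and 3.34e-07). Grb10 fell by 1.22 ± 0.18 in partial cells, 2.24 ± 0.15 in full cells and 2.69 ± 0.18 in J1 (adjusted p = 6.01e-05, 6.84e-09 and 5.17e-09).

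In the Peg10-Sgce cluster on chromosome 6, the neighbours did not move together. Peg10 fell by 1.30 ± 0.25 in partial cells (adjusted p = 0.00101) but rose by 1.56 ± 0.22 in full cells (2.53e-05) and 1.37 ± 0.25 in J1 (0.000315). Sgce, the gene for epsilon-sarcoglycan, fell in all 3, by 1.67 ± 0.23, 1.20 ± 0.20 and 1.48 ± 0.23 (adjusted p = 4.21e-05, 0.000148 and 6.97e-05). Of the maternal genes of the cluster, Ppp1r9a was called higher and Asb4 lower in all 3 comparisons, each by under 2-fold, though 4 of 13 alternatives ended the partial call of Ppp1r9a. Calcr was not called in any, except in full cells with housekeeping centring, with EOS3F-29 alone and without EOS3F-29 array 1. In the Mest-Copg2 cluster, Mest fell by 1.88 ± 0.17 in partial cells (adjusted p = 3.03e-07) and, by under 2-fold, in full cells (-0.60, 0.00337). In J1 its difference was 0.36, not called at 0.103. Copg2, a coat protein subunit gene expressed from the maternal copy, was higher in partial cells by 0.79 (0.0287), with 0.35 and 0.53 in full cells and J1 not called (0.232 and 0.105). The partial call was lost after cyclic loess and without partial array 2 or 3 or MEF array 1 or 2, and the J1 difference was called with the replicate block (0.0213) and without the number 1 arrays (0.011).

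In the Kcnq1 cluster on chromosome 7, all 6 measured genes are maternally expressed, and 5, 4 and 3 of them were called in partial, full and J1 cells. Phlda2 rose by 1.37 ± 0.19, 2.96 ± 0.17 and 3.93 ± 0.19 (adjusted p = 4.53e-05, 6.12e-10 and 9.95e-11). Ascl2, a trophoblast transcription factor gene, rose by 1.09 ± 0.23 in full cells and 1.30 ± 0.26 in J1 (adjusted p = 0.000936 and 0.000632), and by 0.93 in partial cells (0.014), a call lost without partial array 2 or MEF array 1. Slc22a18, a transporter gene, was called higher in all 3 by under 2-fold, with the full call lost under 4 of 18 alternatives. Cdkn1c, a cyclin-dependent kinase inhibitor gene, was lower by 0.92 in partial cells (0.00872) and was not called in full cells or J1. Tssc4 was lower in full cells by under 2-fold, a call lost under 2 of 18 alternatives. Nap1l4, a histone chaperone gene, was higher in partial cells by 0.29 (0.0481), a call that 10 of 13 alternatives ended.

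Other paternally expressed genes included transcription regulators. Plagl1, a zinc finger gene that regulates other imprinted genes, was at 5.67, 6.08 and 5.58 in MEFs and fell by 1.48 ± 0.16, 1.35 ± 0.14 and 1.37 ± 0.16 in partial, full and J1 cells (adjusted p = 2.12e-06, 6.43e-07 and 2.58e-06). Sfmbt2, a Polycomb protein gene, rose by 1.41 ± 0.16 in full cells and 1.50 ± 0.19 in J1 (3.19e-06 and 6.81e-06), and by 0.58 in partial cells (0.033), a call lost under 6 of 13 alternatives. Zdbf2 rose by 2.08 ± 0.18 in full cells and 2.69 ± 0.21 in J1 (1.42e-07 and 3.76e-08), while in partial cells its difference was 0.12 and not called at 0.764. Peg3, a zinc finger gene, measured 5.73, 6.95 and 5.63 in MEFs, 4.73, 4.37 and 4.67 in partial cells and 5.13 to 5.82 in the full lines and J1. It fell by 1.51 ± 0.26 in partial cells (0.000363) and by 0.65 in full cells (0.0336), a call lost under 7 of 18 alternatives, and its J1 difference of -0.68 was not called (0.0526). That J1 difference was called after cyclic loess, with dim genes left out, with the replicate block (0.0334) and without MEF array 1 or 3. Usp29, the neighbour of Peg3, was not called in any comparison, with every array between 2.81 and 3.37.

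Of the members, 9 were at least 2-fold higher in MEFs than the mean of the feeder-grown arrays. Among these, Ndn, H13, Igf2 and Igf2r were highest on the array with most fibroblast signal in 4 or 5 feeder-grown groups. Airn, Sgce and Grb10 were highest there in 3 groups, and Dlk1 and Plagl1 in 2. The same was not counted over all genes. In all 5 feeder-grown groups the array numbered 1 had the highest fibroblast marker mean, for example 8.17 in partial cells against 6.89 and 7.17 on the other arrays. Ndn, which encodes the growth suppressor necdin of the Snrpn cluster, was at 7.76 to 7.81 in MEFs and fell by 1.55 ± 0.34 in partial cells, 1.55 ± 0.30 in full cells and 2.00 ± 0.34 in J1 (adjusted p = 0.00279, 0.000508 and 0.000157). Within the feeder-grown groups it was highest on the number 1 array in all 5, by a mean of 0.84, as in EOS3F-29 with 7.20, 5.97 and 6.14. H13, a signal peptide peptidase gene, was likewise highest there in all 5, by a mean of 0.83. Its differences from MEFs were -0.47 in partial cells, not called at 0.384 but called without the number 1 arrays (-0.55, 0.0356), -1.12 ± 0.30 in full cells (0.00736) and -1.48 ± 0.35 in J1 (0.00262). When EOS3F-29 alone stood for full cells, the difference of H13 was not called (adjusted p = 0.0563). Igf2 and Igf2r were highest on the number 1 array in 4 of 5 groups, by means of 0.43 and 0.34. Tssc4 and Impact were highest there in all 5, without being 2-fold higher in MEFs. Without the 5 number 1 arrays, an alternative added after seeing the data, 22, 23 and 24 members were called against MEFs. The share of all genes called in that fit is not given here, so these counts cannot be set beside a background.

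**Figure D3:**
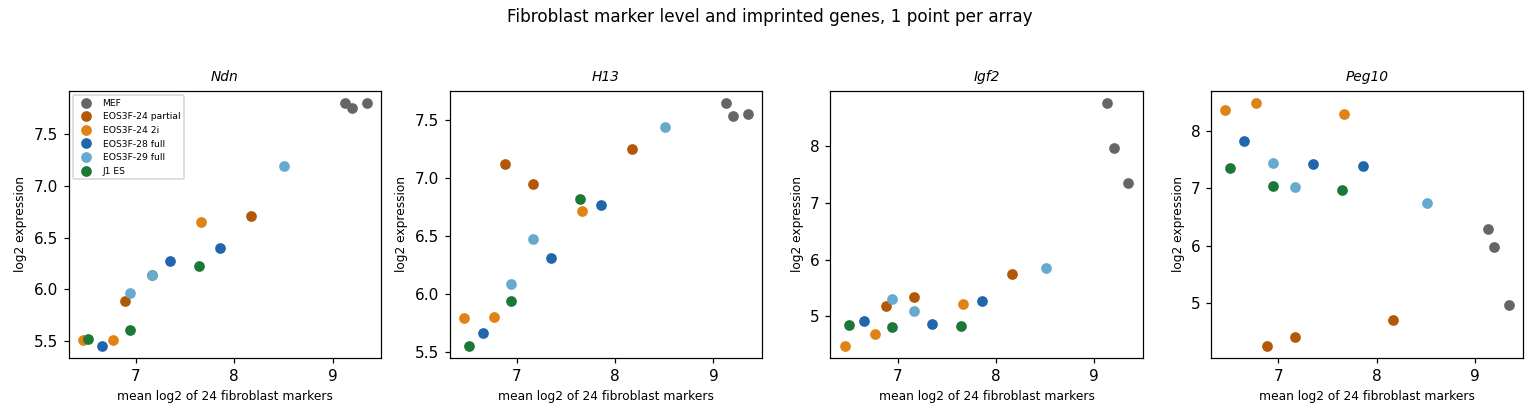
Log2 expression of Ndn, H13, Igf2 and Peg10 (vertical axes) against the mean log2 level of 24 fibroblast markers (horizontal axes), 1 point per array, coloured by group. MEF arrays lie at 9.13 to 9.35 on the horizontal axis, and within each feeder-grown group the rightmost array has the highest Ndn and H13.

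Between partial EOS3F-24 and the full lines, 12 members were called, 3 higher and 9 lower, and 5 calls reached 2-fold. Of all genes 18.6% were called, 12.8% higher and 5.78% lower, and 2.93% with 2-fold. All 6 paternally expressed genes called were lower in partial cells, and the 6 maternally expressed genes called were 3 higher and 3 lower, a count that was 2 without partial array 3 and 7 without EOS3F-29 array 1. Peg10 fell by 2.86 ± 0.22 (adjusted p = 5.23e-08), Zdbf2 by 1.96 ± 0.18 (5.62e-07), Phlda2 by 1.60 ± 0.17 (2.03e-06) and Mest by 1.28 ± 0.15 (6.04e-06). Grb10 was higher in partial cells by 1.02 ± 0.15 (0.000112). For each of these genes the partial arrays lay apart from the full arrays. Of the 7 calls under 2-fold, Peg3, Sfmbt2, Cdkn1c, Meg3 and Nnat were lower and Slc22a18 and Nap1l4 higher in partial cells, and each was lost under 1 or more alternatives. With the replicate number as a block, H13 (0.65, adjusted p = 0.0144) and Tssc4 (0.28, 0.0408) were called higher in partial cells as well; H13 was also called without the number 1 arrays (0.90, 0.00131). Igf2 differed by 0.21 and was not called (0.65). Of the 24 fibroblast markers limma called 0 here, with 1 at an unadjusted p under 0.05, and their median difference was 0.02. The neural markers Stmn2 and Map2 were higher in partial cells by 1.75 and 0.68. Of the primitive endoderm markers, Dab2 and Gata6 were higher by 1.39 and 0.90 and Lama1 was lower by 1.01. Of the trophoblast markers, Gata3 and Cdx2 were higher by 0.94 and 0.54 and Eomes was lower by 0.60. The part of these markers in the members' values was not tested. The count fell from 12 to 7 without partial array 3, and with housekeeping centring the split was 1 higher and 10 lower, with the median of all genes at -0.16.

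In 2i converted against partial EOS3F-24, 13 members were called, 10 higher and 3 lower, and 7 calls reached 2-fold. Of all genes 22.4% were called, 9.36% higher and 13% lower, and 5.22% with 2-fold. The median difference of the members was 0.14, beside 0.00 over all genes. All 8 paternally expressed genes called were higher; of the 5 maternally expressed genes called, 2 were higher and 3 lower. Both groups come from 1 clone, so the comparison covers a single conversion of a single line.

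The paternally expressed genes that rose were led by Peg10, by 3.94 ± 0.25 or 15.4-fold (adjusted p = 4.59e-09). Zdbf2 rose by 2.96 ± 0.21 (1.67e-08) and Mest by 2.47 ± 0.17 (1.02e-08). No converted array of these 3 genes overlapped a partial array. Peg3 was at 4.73, 4.37 and 4.67 before and 5.26, 5.58 and 5.97 after conversion, a rise of 1.01 ± 0.26 (0.00924) that was not called without converted array 3 (0.0604). Sfmbt2, Nnat, Plagl1 and Mkrn3 rose by under 2-fold, by 0.90, 0.65, 0.61 and 0.57. The Mkrn3 call was lost without converted array 2 or 3 or any 1 partial array, and the Plagl1 call without converted array 3, partial array 3 or the number 1 arrays (0.0515). Dlk1, Sgce and Ndn, lower than in MEFs before conversion, had differences of 0.29, 0.47 and -0.35 that were not called; Sgce was called without partial array 1 and without the number 1 arrays (0.73, 0.00294).

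Of the maternally expressed genes, Phlda2 rose by 1.81 ± 0.19 (adjusted p = 2.23e-06) and Grb10 fell by 2.12 ± 0.18 (1.13e-07), from 7.72 to 8.11 before to 5.58 to 6.14 after conversion. H13 was at 7.25, 6.95 and 7.12 before and 6.72, 5.80 and 5.80 after, lower by 1.00 ± 0.35 (0.0486). That H13 call was lost after cyclic loess (0.0574), with trended robust variances (0.0765), without any 1 of the partial arrays (0.0817 to 0.132) and without converted array 2 or 3 (0.179 and 0.176). Without the number 1 arrays H13 was lower by 1.24 (0.000279). Meg3 rose by 0.54 ± 0.15 (0.0165), a call lost without partial array 1 or 3 or converted array 2 (0.0641 to 0.0752), and without the number 1 arrays (0.0507). Slc22a18 fell by 0.57, a call lost under 5 of 13 alternatives. The difference of Igf2 was -0.63 ± 0.28, not called at 0.125; with the replicate number as a block it was called, at 0.046, and 14 members in all. Of the 24 fibroblast markers limma called 0, with 2 at an unadjusted p under 0.05, and their median difference was -0.34. The count of 13 fell to 8 without partial array 3 or converted array 3.

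Promoter sequences of Zdbf2 and Mest are shown because these members rose after conversion and each had a window with more than 1 copy of TGCCGC. ZFP57 binds this hexamer when its CpG is methylated. RefSeq windows (mouse build GRCm38.p6) of the 250 bases before a transcription start were present for 29 of the 37 members, 41 windows in all. TGCCGC on either strand (GCGGCA read on the other strand) occurred in 8 of the 41 member windows, or 19.5%, and in 8.68% of 32851 windows of all genes. The Mest windows starting at 30737800 and 30737803 overlap and hold the same matches, and both are counted. The 7 members with a match were Zdbf2, Mest, Calcr, Copg2, Zim1, Plagl1 and Meg3, and the windows of Peg3, Grb10, Phlda2 and Nnat held none. Another Zdbf2 window, at chr1:63273019-63273268, and another Mest window, at chr6:30733256-30733505, held none either. Member windows had a median of 12 CpG, beside 6 over all windows. Both windows below are on the plus strand, read 5′ to 3′, with the hexamer in capitals; Zdbf2 is at chr1:63200108-63200357 and Mest at chr6:30737800-30738049, each just upstream of an annotated start. A match is only a description of the letters.
Zdbf2: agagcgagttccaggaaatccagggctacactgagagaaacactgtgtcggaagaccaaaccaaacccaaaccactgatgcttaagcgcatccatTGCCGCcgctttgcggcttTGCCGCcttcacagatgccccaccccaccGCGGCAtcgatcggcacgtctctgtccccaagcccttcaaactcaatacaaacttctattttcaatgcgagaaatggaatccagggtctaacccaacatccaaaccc
Mest: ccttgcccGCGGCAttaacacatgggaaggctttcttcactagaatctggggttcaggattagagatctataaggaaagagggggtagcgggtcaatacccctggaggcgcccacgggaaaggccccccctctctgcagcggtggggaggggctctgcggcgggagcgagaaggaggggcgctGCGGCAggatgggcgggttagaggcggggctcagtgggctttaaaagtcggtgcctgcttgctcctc

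Against the full lines, converted EOS3F-24 differed in 5 members, 4 higher and 1 lower, and 4 calls reached 2-fold. Of all genes 5.16% were called, 3.96% higher and 1.20% lower, and 0.366% with 2-fold. The 4 higher were all paternally expressed: Mest by 1.19 ± 0.15 (adjusted p = 0.00015), Peg10 by 1.08 ± 0.22 (0.00734), Zdbf2 by 1.00 ± 0.18 (0.00354) and Plagl1 by 0.48 (0.0485). The Plagl1 call was lost under 11 of 18 alternatives, any 1 converted array left out among them (0.194 without the number 1 arrays). Grb10 was lower by 1.10 ± 0.15 (0.000418). Every converted array of Mest, Peg10 and Zdbf2 lay above every array of both full lines, and every Grb10 array below. The Peg10 call was lost without converted array 3 (0.0578) and against EOS3F-28 alone (0.0659); the count fell to 3 without converted array 3. Igf2 differed by -0.42, Meg3 by 0.08 and Rian by -0.15, none called (0.399, 0.834 and 0.726). The converted group differs from the full lines in its clone and in having been given both inhibitors, and these cannot be told apart. The converted and partial arrays both enter comparisons with the same full lines, so these values and those of partial cells are not independent. The fibroblast marker median was -0.41, with 0 of the 24 called by limma and 3 at an unadjusted p under 0.05.

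The full lines and J1 differed in 3 members, all lower in the full lines, and 0 calls reached 2-fold. Of all genes 4.76% were called, 1.29% higher and 3.47% lower, and 0.401% with 2-fold. They are named although they fall short of 2-fold. Phlda2 was lower by 0.97 ± 0.17 (adjusted p = 0.0022), with J1 at 7.44 to 8.04 and the full arrays at 6.44 to 7.02. Mest was lower by 0.97 ± 0.15 (0.000858), at 7.17 to 7.59 in J1 and 6.19 to 6.67 in the full lines. Nnat, an endoplasmic reticulum proteolipid gene, was lower by 0.63 ± 0.12 (0.00473), with overlapping arrays. Its means were 3.86 in EOS3F-28, 4.30 in EOS3F-29 and 4.71 in J1, and the call was lost with EOS3F-29 alone. After cyclic loess 4 members were called, 1 higher and 3 lower. The differences of Igf2, Meg3 and Rian were 0.38, -0.03 and -0.02, with adjusted p = 0.471, 0.94 and 0.975. The fibroblast marker median was 0.35, with 0 of 24 called by limma and 2 at an unadjusted p under 0.05. J1 and the CD1-derived lines differ in origin and in puromycin, listed for the iPS lines only, as well as in reprogramming, and these cannot be told apart.

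The clones EOS3F-28 and EOS3F-29 differed in 1 member, Rian, a maternally expressed noncoding RNA of the Dlk1-Dio3 cluster that hosts small nucleolar RNAs. Of all genes 0.532% were called, 0.301% higher and 0.231% lower in EOS3F-28, and 0.206% with 2-fold. Rian was at 5.04, 5.76 and 5.49 in EOS3F-28 and 4.45, 4.42 and 4.56 in EOS3F-29, a difference of 0.96 ± 0.20 (adjusted p = 0.0346) and every EOS3F-28 array above every EOS3F-29 array. MEFs had 5.04, 5.33 and 5.03, partial cells 4.79, 4.82 and 4.43, converted cells 5.11, 4.31 and 4.97, and J1 4.76, 5.17 and 4.97. EOS3F-28 thus lay within or above the range of MEFs and J1, and EOS3F-29 below both. The call was lost without EOS3F-29 array 1, 2 or 3 or EOS3F-28 array 2 or 3, with adjusted p from 0.079 to 0.182, and with only these 6 arrays in the fit (0.106). With the replicate number as a block 2 members were called, Rian and Sfmbt2, the latter lower in EOS3F-28 by 0.74 (0.0176). Meg3, transcribed from the same strand upstream of Rian, was at 7.45, 8.19 and 7.69 in EOS3F-28 and 7.41, 7.48 and 7.47 in EOS3F-29, a difference of 0.32 ± 0.15 with overlapping arrays (0.463). Igf2 differed by -0.40 and was not called (0.653). The fibroblast markers had a median difference of -0.27, and limma called 0 of the 24, with 0 at an unadjusted p under 0.05.

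Across the Dlk1-Dio3 cluster on chromosome 12, the paternal gene Dlk1 and the maternal RNA Meg3 were lower in all 3 comparisons with MEFs. Dlk1 encodes a membrane protein of the Notch ligand family and was at 6.09, 6.85 and 5.60 in MEFs and 4.73 to 5.22 elsewhere. It fell by 1.32 ± 0.20 in partial cells, 1.19 ± 0.17 in full cells and 1.24 ± 0.20 in J1 (adjusted p = 8.46e-05, 3.19e-05 and 8.09e-05). Meg3 was at 8.30, 8.04 and 8.14 in MEFs, 7.05, 7.37 and 7.05 in partial cells, 7.65, 7.81 and 7.63 after conversion and 7.52, 7.57 and 7.86 in J1. It fell by 1.00 ± 0.15 in partial cells (0.000107), by 0.54 ± 0.13 in full cells (0.00361) and by 0.51 ± 0.15 in J1 (0.0132). Partial cells were lower than full cells by 0.46 ± 0.13 (0.022), a call lost against EOS3F-29 alone (0.235), with only these arrays in the fit (0.0612) and without partial array 1 or 3 (0.0995 and 0.106). The full and J1 calls of Meg3 were lost with housekeeping centring (0.0574 and 0.11), the full call also with EOS3F-28 alone (0.0711), and the J1 call without J1 array 1 or MEF array 1 (0.0515 and 0.06). Rian differed from MEFs by -0.45 ± 0.20, -0.18 ± 0.17 and -0.17 ± 0.20, none called (0.114, 0.461 and 0.559). Its partial difference was called after cyclic loess (0.0475) and with only those arrays in the fit (0.0413), and its full difference with EOS3F-29 alone, at -0.66 (0.0162). For partial against full its difference was -0.27 (0.334), called at -0.75 against EOS3F-28 alone (0.0159), and for converted against partial 0.12 (0.773). Rtl1, a retrotransposon-derived gene, and Dio3, which encodes a thyroid hormone-inactivating deiodinase, stayed between 3.14 and 4.25 on every array.

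The other measured genes between Dlk1 and Dio3 numbered 43, of which 40 are microRNA genes. Called members of this group were all lower in the MEF comparisons: 12 in partial cells, 7 in full cells and 11 in J1, with medians of -0.22, -0.08 and -0.17. As shares of 43 these counts are 27.9%, 16.3% and 25.6%, beside 23.7%, 35.0% and 38.0% of all genes called in either direction and 10.0%, 17.8% and 17.5% called lower. Mir323 had the largest fall in full cells and J1. It was at 4.32, 4.25 and 4.15 in MEFs and at 2.97 to 3.70 on all other arrays, with differences of -0.78 ± 0.15, -0.91 ± 0.13 and -1.12 ± 0.15 (adjusted p = 0.000857, 3.03e-05 and 1.29e-05). Mir380 fell by 0.81 ± 0.19 in partial cells and 0.89 ± 0.19 in J1 (0.00345 and 0.000917), and Mir382 by 0.58 ± 0.13 in full cells (0.00182). Mir380 averaged 3.79 in MEFs, 2.98 in partial cells and 2.90 in J1, and Mir382 4.61 in MEFs and 4.03 in full cells. With array medians of 3.92 to 4.11, these levels are low on the scale of the arrays. Between EOS3F-28 and EOS3F-29 limma called 0 of the 43, with 14 at an unadjusted p under 0.05; 33 had a positive difference, and the median was 0.14 beside -0.04 over all genes. The 14 at an unadjusted p were not set beside a share of all genes. For partial against full 6 of the 43 were called lower, beside 5.78% of all genes. For full against J1 1, Mir411, was called higher, beside 1.29% of all genes. Conversion brought 2 calls higher and 1 lower among the 43, beside 9.36% and 13% of all genes. These transcripts come from 1 long maternal unit and are not independent of each other.

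**Figure D4:**
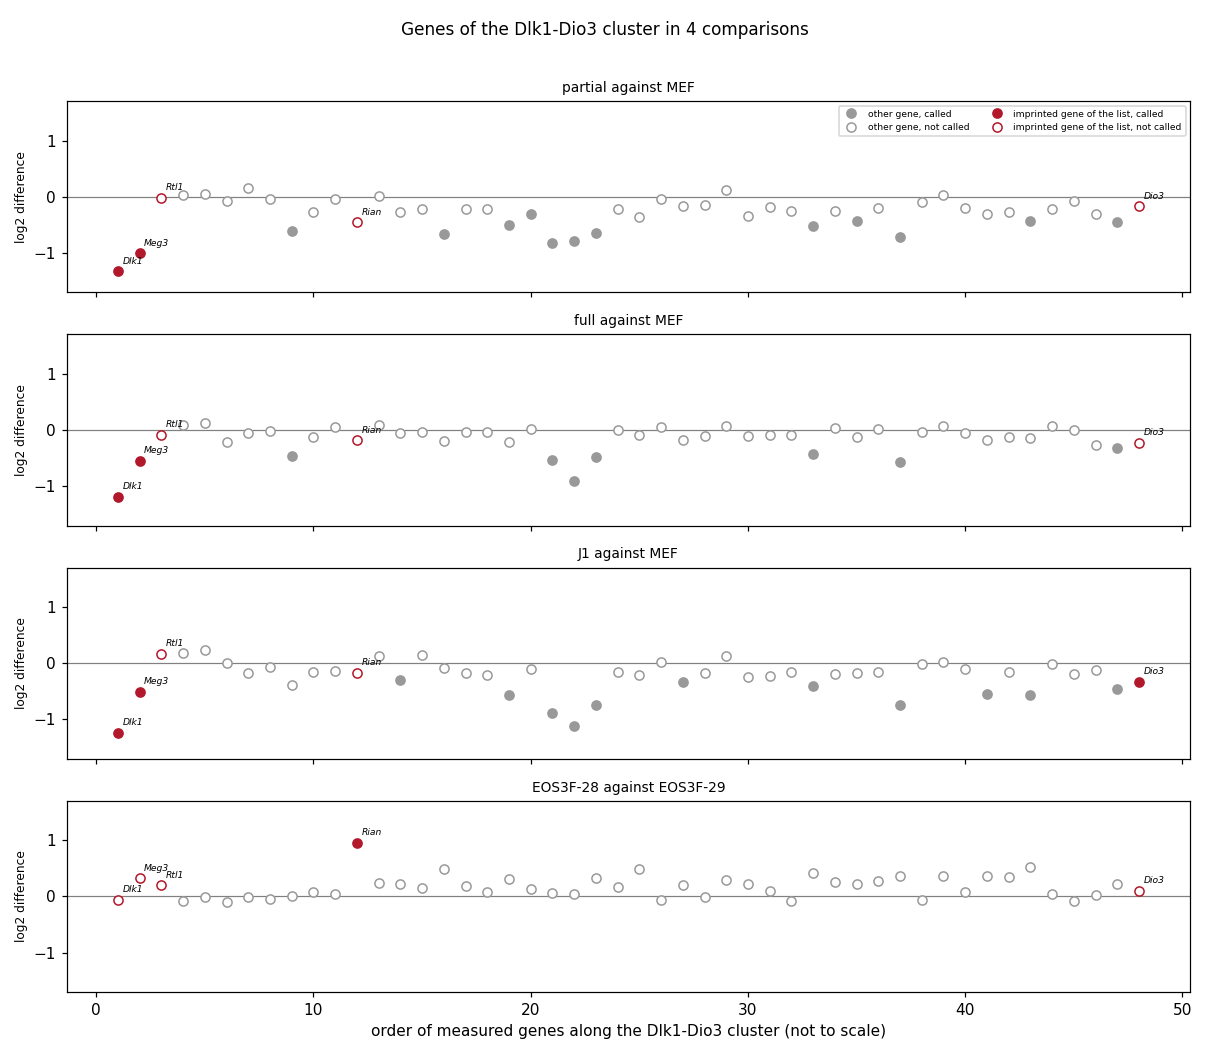
Difference of log2 means for the measured genes of the Dlk1-Dio3 cluster in their order along the chromosome (not to scale), in 4 comparisons; filled points were called, and genes of the imprinted list are in red with their names. Filled points in the MEF comparisons all lie below 0, and in EOS3F-28 against EOS3F-29 Rian alone is filled, at 0.96.

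Mature sequences of Mir380, Mir323 and Mir382 are shown because these were the largest falls of the group. The array read the gene's transcript and not the mature forms, so neither arm can be singled out. They lie on the plus strand of GRCm38.p6, from mmu-miR-380-5p at chr12:109711806-109711827 to mmu-miR-382-3p at chr12:109733819-109733840, and are taken from RefSeq. Capitals mark the seed, bases 2 to 8, which pairs with target RNAs; no seed was shared.
mmu-miR-380-5p: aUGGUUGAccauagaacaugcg
mmu-miR-380-3p: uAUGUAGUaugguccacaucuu
mmu-miR-323-5p: aGGUGGUCcguggcgcguucgc
mmu-miR-323-3p: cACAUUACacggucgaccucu
mmu-miR-382-5p: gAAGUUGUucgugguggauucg
mmu-miR-382-3p: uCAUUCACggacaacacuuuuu

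Of the regulators of imprint maintenance, a list of 23 measured genes, 12, 15 and 15 were higher than MEFs in partial, full and J1 cells, where 13.7%, 17.1% and 20.6% of all genes were. In partial cells limma called 12 higher than in MEFs and 0 lower (0 at an unadjusted p under 0.05), led by Tet1, a dioxygenase gene of DNA demethylation, at 1.69 ± 0.19 (adjusted p = 5.29e-06), and Zfp57 at 1.66 ± 0.19 (4.43e-06). In full cells limma called 15 higher and 0 lower (1 at an unadjusted p under 0.05), and in J1 15 higher and 1 lower, with Dnmt3l, a cofactor of de novo methylation, higher by 5.01 ± 0.16 and 4.61 ± 0.18 (3.31e-13 and 7.14e-12). Zfp57 averaged 6.16 in MEFs, 7.82 in partial cells, 8.62 after conversion, 7.96 and 8.60 in EOS3F-28 and EOS3F-29 and 8.76 in J1. Dnmt1 averaged 7.04 in MEFs and 7.46 to 7.70 in the other groups. Partial cells had 10 of the 23 lower and 2 higher than full cells, beside 5.78% and 12.8% of all genes, with Dnmt3l lower by 4.39 ± 0.16 (4.61e-12) and Zfp42 lower by 3.34 ± 0.19 (1.34e-09). Between converted and partial cells 12 were higher and 3 lower, beside 9.36% and 13% of all genes, with Zfp42 higher by 4.40 ± 0.22 (2.00e-10), Dnmt3l higher by 4.25 ± 0.18 (3.29e-11) and Tet3 lower by 0.72 ± 0.15 (0.00125). Converted against full cells had 2 higher and 1 lower, beside 3.96% and 1.20% of all genes. Full against J1 had 1 higher and 3 lower, beside 1.29% and 3.47%. EOS3F-28 against EOS3F-29 had only Dnmt3a, higher by 0.79 ± 0.15 (0.0202), where 0.532% of all genes were called. Whether these regulators' levels bear on those of the imprinted genes was not tested.

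Of the remaining members, Magel2, Rasgrf1, Usp29, Rtl1, Calcr, Kcnk9, Trappc9 and Impact were not called in any of the 8 comparisons. Magel2, Rasgrf1, Usp29, Calcr and Kcnk9 were under 4 on every array. Trappc9, which encodes a vesicle tethering subunit, stayed between 4.38 and 5.02, and Impact, a translation regulator gene, between 7.98 and 9.04. Without the number 1 arrays Impact was called lower than in MEFs in full cells (-0.42, 0.0268) and J1 (-0.52, 0.0244), and Trappc9 was called between J1 and MEFs without J1 array 1. Zim1 was called lower than in MEFs in partial cells and J1, by 0.36 and 0.32, and Dio3 in J1, by 0.33; 5 to 7 of 13 alternatives ended each of these calls.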

How the data were processed

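Per the labels' protocols, total RNA went through a sense-target assay for whole transcripts with biotin and onto 18 arrays. The authors deposited 1 table of log2 expression values for 34760 probe sets, for which the submitters' processing notes name RMA; its version, and the build of the array annotation, are not given in sources used here. Values ran from 0.678 to 13.295 and the columns do not share identical quantiles, so any scaling after RMA is not known. Precision is limited by having 3 arrays per group.

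Probe sets were named by the platform annotation: 21640 had 1 symbol, 1321 several and 11799 none listed. The highest-mean probe set stood for each of 19937 genes (954 had more than 1). Linear models with 1 mean per group were fitted to all 18 arrays in limma 3.58.1 (R 4.3.3) with empirical Bayes moderation, and EOS3F-28 and EOS3F-29 were averaged as full cells. p-values were adjusted by Benjamini-Hochberg over all genes, with calls at an adjusted p under 0.05. The script was tested on simulated data. The members, the lists (imprint maintenance, other imprinted genes, Dlk1-Dio3 region, cell type markers, housekeeping) and the tests were chosen with earlier results of these data known.

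Differences are given for members called with at least 2-fold in a comparison, for Igf2, Meg3 and Rian in every comparison, and, of each list, for the 2 largest called rises and falls. Other members are named in the text because of their calls or levels, a choice made after their values were seen.

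Alternatives were cyclic loess, housekeeping centring, leaving out genes with a mean under 5, averaging probe sets, fitting only the arrays compared, a replicate block, trended robust variances, 1 full line only, and each array left out. Every member had 1 probe set, so averaging left the members' own values as they were, and it changed no member's call. It is still counted among the alternatives. The labels number the replicates without saying what a number shares. Deviations from the group means correlated within every number at over 0.1 for EOS3F-28 with EOS3F-29 (0.542, 0.639 and 0.149). They did so too for converted with partial EOS3F-24 (0.383, 0.140 and 0.122). Partial EOS3F-24 passed 0.1 at every number with EOS3F-29 (0.387, 0.296 and 0.136) but not with EOS3F-28 (-0.069 at number 3). Any such pairing is read from the values alone. The main fit did not use it, and the replicate block was run as an alternative only.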

Additional observations from a re-analysis of the deposited data

Results flagged for a closer look

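The change of Rian from MEFs was 0.29 in EOS3F-28 and -0.66 in EOS3F-29 on the log2 scale, and these changes differed by 0.96 (adjusted p = 0.0346, limma with Benjamini-Hochberg adjustment). The MEF arrays cancel in that difference, which is the direct comparison of both clones with 3 arrays each. All 3 EOS3F-28 arrays were above all 3 EOS3F-29 arrays.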

How the results depend on the processing

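Of the 77 named differences, 62 were called. Of these, 53 kept their direction and call under every alternative that tested the gene, planned or added. Airn, Plagl1 and Ascl2 were not tested with dim genes left out, so their kept calls do not cover that alternative. None of the 62 turned its sign. The 9 that lost a call somewhere were those of Meg3 (4 comparisons), H13 (full against MEF, converted against partial), Peg3 and Peg10 in converted cells and Rian between the clones. With genes under a mean of 5 left out, 18 members were tested, and 14, 14 and 13 were called in partial, full and J1 cells against MEFs. The share of all genes called in that fit is not given here. Between the clones limma called 0 of the 18, but Rian, at a mean of 4.91, was left out and so was not tested. With the replicate number as a block, 5 members were called for full against J1, whose numbers do not pair all arrays, and 2 between the clones; the block moved no other count by more than 1.5 times. With only the arrays compared, 0 were called between the clones, and without the number 1 arrays 2. Of all 43 calls under 2-fold, 16 held under every alternative other than leaving out dim genes. Leaving out 1 array gave 16 to 20 calls for partial against MEF, 20 to 24 for full against MEF, 20 to 23 for J1 against MEF, 7 to 13 for partial against full, 3 to 4 for full against J1, 0 to 1 between the clones, 8 to 13 for converted against partial and 3 to 5 for converted against full.

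All sign changes of named differences were of Meg3 or Rian in comparisons where that gene was not called, and their cause was not tested. For Rian they were full against MEF with EOS3F-28 only (0.29), partial against full with EOS3F-29 only (0.21), converted against full with EOS3F-29 only (0.32), and full against J1 after cyclic loess (0.028), housekeeping centring (0.0021) and with EOS3F-28 only (0.46). For Meg3 they were full against J1 after cyclic loess (0.036) and with EOS3F-28 only (0.13), and converted against full after cyclic loess (-0.055), housekeeping centring (-0.043) and with EOS3F-28 only (-0.080). With 1 array left out, Rian ranged from -0.12 to 0.085 for full against J1, from -0.043 to 0.36 for converted against partial and from -0.31 to 0.091 for converted against full; Meg3 ranged from -0.14 to 0.074 for full against J1 and from -0.0012 to 0.19 for converted against full.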

Other observations

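Outside the 37 genes described above, 30 further imprinted genes were measured, of which a few differed widely between partial EOS3F-24 and the other groups. Slc38a4, a paternally expressed amino acid transporter gene, averaged 7.04 in MEFs, 3.97 in partial cells and 8.23 after 2i conversion. It was lower than in full cells by 3.64 ± 0.35 (SE, adjusted p = 8.24e-07, limma with Benjamini-Hochberg adjustment, as for all p-values here) and rose by 4.25 ± 0.41 on conversion (6.05e-07). Gab1, which encodes a signalling adaptor, rose by 1.78 ± 0.16 on conversion (3.61e-07). Ddc, the gene of aromatic amino acid decarboxylase, averaged 4.08 in MEFs and 7.00 in partial cells, and fell by 2.50 ± 0.14 on conversion (6.12e-10). Tspan32, a tetraspanin gene, went the same way, falling by 2.46 ± 0.18 (1.75e-08). Of the 30 genes, 12 were called between partial cells and MEFs, 6 in each direction (23.7% of all genes were called), and 14 each for full and J1 cells against MEFs (35.0% and 38.0%). Between partial and full cells 8 were called, 6 higher and 2 lower (18.6%), with a median of 0.08, and on conversion 10, 3 higher and 7 lower (22.4%).

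Gab1 also differed between the clones, higher in EOS3F-28 by 0.98 ± 0.16 (0.00878), and was lower in the full lines than in J1 by 1.43 ± 0.14 (1.38e-05).

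In the MEF group, 4 of the 37 members had a range of at least 1 over the 3 arrays, namely Igf2, Dlk1, Peg10 and Peg3, and all 4 were highest on MEF array 2.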
